A study of Mus musculus with 31 samples.

Results

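The genes described here build and run the vesicle traffic between the endoplasmic reticulum and the Golgi. They were taken by symbol from the array annotation: the coatomer genes (Copa, Copb1, Copb2, Copg1, Copg2, Cope, Copz1, Copz2, Arcn1), Arf1 to Arf6, and the symbols that begin with Sec13, Sec16, Sec22, Sec23, Sec24, Sec31, Tmed, Trappc, Golga, Gosr or Cog and a digit. This rule used no measured value and gave 100 probes of 62 genes, out of 25697 probes and 16593 named genes on the array. The arrays (Illumina MouseRef-8 v2.0 bead arrays) read RNA of whole liver and of epididymal adipose tissue (fat) from male C57BL/6JRj mice. The mice were aged 16 weeks at the start of the exposure. The exposed mice breathed intermittent hypoxia (IH) for 14 days, in cycles of 60 s with 30 s at 5% oxygen and the rest at 21%, for 8 h per day, and the normoxic mice (NO) had the same cycles with air at 21%. No genotype or drug was varied, and each array stands for 1 tissue of 1 mouse. The labels do not say whether liver and fat arrays came from the same mice. The groups were liver IH (n = 7), liver NO (n = 8), fat IH (n = 8) and fat NO (n = 8), and the array methods of the study describe the liver only.

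Cargo leaves the endoplasmic reticulum in vesicles coated by COPII. Sec16 marks the exit sites there, Sec23 and Sec24 form the inner coat and select cargo, and Sec13 belongs to the outer coat. COPI, a coat of coatomer subunits that the GTPase Arf1 brings to the membrane, carries proteins back from the Golgi and between its cisternae. The Tmed proteins (p24 family) are cargo receptors of both coats. The TRAPP and COG complexes and the golgins tether vesicles to their target, and the SNAREs Sec22b, Gosr1 and Gosr2 fuse them with it. Liver secretes most plasma proteins through this route, and fat secretes adipokines and collagen through it.

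The starts of these genes were read first, since a set of genes for one route can share sequence ahead of the transcript. RefSeq promoter windows of 300 bases around the start of a gene (build GRCm38.p6) were held for 52 of the 62 genes, in 60 windows. The motif TGACGTG, the core that is known from genes of the unfolded protein response, was present on one strand or the other in 8 of the 60 windows (13.3%), against 2.01% of 32851 windows of all genes and 2.66% of 9353 windows of genes tested here. Its inner letters ACGTG, which are also the core of the hypoxia response element, were present in 36 windows (60%), against 19.6% of all windows and 25% of those of tested genes. The E-box CACGTG also contains ACGTG and was present in 13.3% of the windows, against 7.15% and 9.74%. The letters CCACG, part of the ER stress response element and able to overlap ACGTG, were present in 68.3%, against 32.8% and 45.6%. For CCAAT the shares were 43.3%, 37.4% and 37.3%, for the GC box GGGCGG 68.3%, 35.7% and 60.3%, and for the NRF1 site 3.33%, 0.971% and 1.85%. The median GC content was 59% in the members' windows, 60% in those of tested genes and 52.7% in all. The 8 windows with TGACGTG belonged to Arf1 (2 overlapping windows), Copb1, Copb2, Golga1, Sec16b, Sec23a and Sec24d. The windows of 4 of them are shown because their results differ: Sec23a was called higher in liver IH, Sec24d and Copb1 were called lower in fat IH, and Copb2 was called in neither tissue. Capitals mark TGACGTG or its reverse complement CACGTCA, and each sequence runs 5′ to 3′ on the strand of its gene.
Sec23a (chr12:59011968-59012267, minus strand): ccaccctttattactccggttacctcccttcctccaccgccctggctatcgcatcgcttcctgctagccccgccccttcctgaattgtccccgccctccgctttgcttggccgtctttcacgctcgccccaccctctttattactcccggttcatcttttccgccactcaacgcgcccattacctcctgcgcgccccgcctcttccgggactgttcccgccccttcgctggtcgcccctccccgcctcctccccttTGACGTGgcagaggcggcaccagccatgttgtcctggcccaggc
Sec24d (chr3:123267246-123267545, plus strand): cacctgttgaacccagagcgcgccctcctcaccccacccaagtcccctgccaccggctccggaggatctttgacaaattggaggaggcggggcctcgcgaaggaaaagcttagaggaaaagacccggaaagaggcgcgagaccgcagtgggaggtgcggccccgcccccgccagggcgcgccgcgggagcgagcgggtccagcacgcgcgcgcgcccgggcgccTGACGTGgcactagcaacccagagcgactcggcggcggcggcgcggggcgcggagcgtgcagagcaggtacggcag
Copb1 (chr7:114254631-114254930, minus strand): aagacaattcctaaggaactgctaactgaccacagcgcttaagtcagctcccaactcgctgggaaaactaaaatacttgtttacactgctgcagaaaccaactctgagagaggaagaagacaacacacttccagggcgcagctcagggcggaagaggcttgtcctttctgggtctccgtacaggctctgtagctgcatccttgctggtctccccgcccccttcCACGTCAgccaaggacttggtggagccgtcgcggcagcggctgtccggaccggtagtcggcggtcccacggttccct
Copb2 (chr9:98563481-98563780, plus strand): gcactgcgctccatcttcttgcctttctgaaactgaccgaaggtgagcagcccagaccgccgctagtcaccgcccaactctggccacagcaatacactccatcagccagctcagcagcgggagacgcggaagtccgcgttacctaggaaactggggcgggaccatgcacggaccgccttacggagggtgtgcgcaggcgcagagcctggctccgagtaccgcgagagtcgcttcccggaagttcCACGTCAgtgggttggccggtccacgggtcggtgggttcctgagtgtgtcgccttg
These are matches of letters in a window and were not tested for binding.

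The precision of every value is limited by the number of arrays. Between 8712 and 9293 probes were detected on the liver IH arrays and between 8359 and 9158 on the liver NO arrays (two-sided exact permutation p = 0.0494), and between 10775 and 12340 on the fat IH arrays and between 10261 and 11932 on the fat NO arrays (exact permutation p = 0.147). The liver IH arrays lay on chips 2 and 3, the liver NO arrays on chip 1, the fat IH arrays on chips 5 and 6, and the fat NO arrays on chips 3 and 4, so that chip and exposure cannot be told apart within a tissue. Fat IH replicate 19 stood apart from its group (median correlation of 0.898 with the other fat IH arrays, against at least 0.946 for each of those). All 7 probes for epididymis and vas deferens genes were detected on it, 6 on fat IH replicate 16 and 3 on fat NO replicate 4. Albumin was detected on every liver array and on no fat array, and Adipoq was between 13.05 and 14.72 in fat IH and between 14.49 and 14.81 in fat NO on the log2 scale, so both tissue labels held.

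In liver, few of these genes passed the test. Of the 62 genes, 54 passed the filter on low signal (a detection p under 0.01 on at least 7 liver arrays), and 1 of the 54 was called at an adjusted p under 0.05, Sec23a, which was higher in IH. Over all 6443 genes tested in liver, 0.931% were called, 0.45% higher and 0.481% lower, beside 1.85% of the members. Before adjustment, with the limit set at a p of 0.01, 4 members were higher (Sec23a, Arf5, Golga7 and Tmed2) and 2 were lower (Sec22b and Tmed4), which is 6 of 54 (11.1%) against 6.24% of all genes. By direction, 7.41% of the members were higher and 3.7% lower, against 2.7% and 3.54% of all genes. The IH and NO arrays overlapped for each of the 54 members, while they did not overlap for 0.481% of all genes. The median difference was −0.05 over the members and −0.01 over all genes (IH minus NO, log2), with 25 members above 0 and 29 below. In whole tissue, fewer cells of a type and less RNA per cell cannot be told apart.

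Sec23a, an inner subunit of the COPII coat that also activates the GTPase Sar1, had a normalized log2 signal of 6.81, 7.26 and 7.72 (lowest, median and highest) on the 7 liver IH arrays, against 5.85, 6.29 and 7.03 on the 8 liver NO arrays. The IH arrays were the higher ones, with an overlap at the top of the NO range, and the probe was detected on 7 of 7 IH arrays and 3 of 8 NO arrays. The filter asked for 7 liver arrays, so Sec23a passed it only through the IH arrays, where it was higher. The difference was 0.86 (SE 0.18, adjusted p = 0.0387 with limma, two-sided exact permutation p = 0.0014). It was kept as a call in 4 of the 15 fits that each left out 1 array (adjusted p 0.0201 to 0.0886), and the adjusted p was 0.105 with chip as a random block. Over 27 alternative settings, these 15 included, the difference ran from 0.29 to 1.03 and was called in 11. The IH arrays of chip 2 had 7.17 and 7.72 and those of chip 3 lay between 6.81 and 7.60, so both chips lay above the NO median. All NO arrays lay on chip 1, so these values do not separate exposure from chip.

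**Figure D1:**
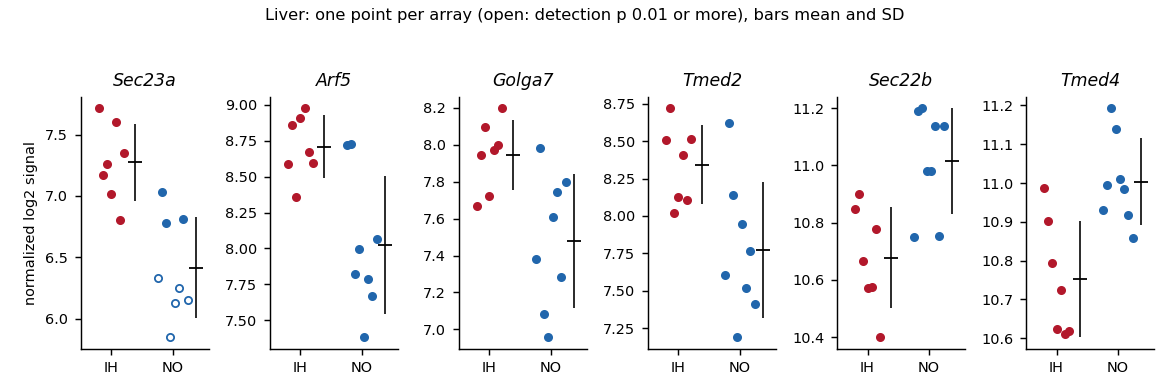
Normalized log2 signal of 6 member genes on each liver array, with the 7 IH arrays left and the 8 NO arrays right (open points: not detected, bars: mean and SD). Sec23a, Arf5, Golga7 and Tmed2 sit higher in IH and Sec22b and Tmed4 lower, each with some overlap, and 5 of the 8 NO points of Sec23a are open.

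The other COPII genes were not called in liver. Sec24b, a cargo-binding subunit, differed by 0.28 (SE 0.12, adjusted p = 0.235), and the exit site scaffold gene Sec16b by 0.40 (SE 0.19, adjusted p = 0.297). Sec23ip, a partner of Sec23, differed by −0.43 (SE 0.21, adjusted p = 0.309), and Sec24c by −0.25 (SE 0.12, adjusted p = 0.31). Sec13, Sec16a, Sec23b and Sec24d lay between −0.21 and 0.02.

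Arf5, an Arf GTPase of the early Golgi, had 8.36, 8.67 and 8.98 in liver IH and 7.38, 7.91 and 8.73 in liver NO (lowest, median and highest). All 7 IH arrays lay above the NO mean, and the 2 highest NO arrays reached into the IH range. The difference was 0.69 (SE 0.19, adjusted p = 0.0892). Arf1, which recruits coatomer to the Golgi, had 11.81, 11.96 and 12.08 in IH and 11.86, 12.27 and 12.47 in NO, a difference of −0.26 (SE 0.10, adjusted p = 0.195). Arf3 differed by 0.57 (SE 0.23, adjusted p = 0.229), Arf2 by −0.24 and Arf6 by 0.08. The adjusted p of none of the 5 measured Arf genes was under the threshold.

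Among the cargo receptors, Tmed2 had 8.02, 8.41 and 8.72 in liver IH and 7.19, 7.69 and 8.62 in liver NO, a difference of 0.57 (SE 0.19, adjusted p = 0.146). Tmed4 pointed the other way, with 10.61, 10.72 and 10.99 in IH and 10.86, 10.99 and 11.19 in NO, a difference of −0.25 (SE 0.08, adjusted p = 0.154). Each gene was read from its brightest probe, and the other 3 probes of Tmed4 had differences of 0.35, 0.41 and 0.53, none of them called. Tmed3 differed by −0.59 (SE 0.28, adjusted p = 0.293), and Tmed9 and Tmed10 by −0.25 and −0.17.

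Sec22b, a SNARE that serves both directions of this traffic, had 10.40, 10.67 and 10.90 in liver IH and 10.75, 11.06 and 11.20 in liver NO. All 7 IH arrays lay below the NO mean, with overlap (difference −0.34, SE 0.10, adjusted p = 0.119). Gosr1, a Golgi SNARE, differed by 0.12 (SE 0.14, adjusted p = 0.72), and Gosr2, Sec22a and Sec22c lay between −0.11 and 0.19. Golga7, which assists a palmitoyl transferase of the Golgi, had 7.67, 7.97 and 8.199 in IH and 6.96, 7.49 and 7.98 in NO, a difference of 0.46 (SE 0.15, adjusted p = 0.145). Golga3, a golgin, differed by −0.31 (SE 0.15, adjusted p = 0.319).

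Of the COG complex, which tethers vesicles that return within the Golgi, Cog8 differed by −0.44 (SE 0.15, adjusted p = 0.169) and Cog2 by −0.25 (SE 0.10, adjusted p = 0.226). The 6 measured Cog genes lay between −0.44 and 0.10. Of the TRAPP complex, a tether and activator of Rab GTPases, Trappc3 differed by 0.22 (SE 0.12, adjusted p = 0.374) and Trappc9 by 0.21 (SE 0.13, adjusted p = 0.433), and the 11 measured genes lay between −0.20 and 0.23. Among the coatomer genes, Arcn1, which encodes the delta subunit, differed by 0.24 (SE 0.13, adjusted p = 0.389), Copa, which encodes the alpha subunit, by 0.15 (SE 0.11, adjusted p = 0.523), and the 7 measured coatomer genes lay between −0.15 and 0.24. One dim probe of Copz2, a zeta subunit gene, was called lower (−0.55, SE 0.11, adjusted p = 0.0363 over 8879 probes), while the other 3 Copz2 probes were between 0.03 and 0.22. Of all probes, 0.867% were called in liver, and of the 77 member probes 2 were, this one and that of Sec23a.

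**Figure D2:**
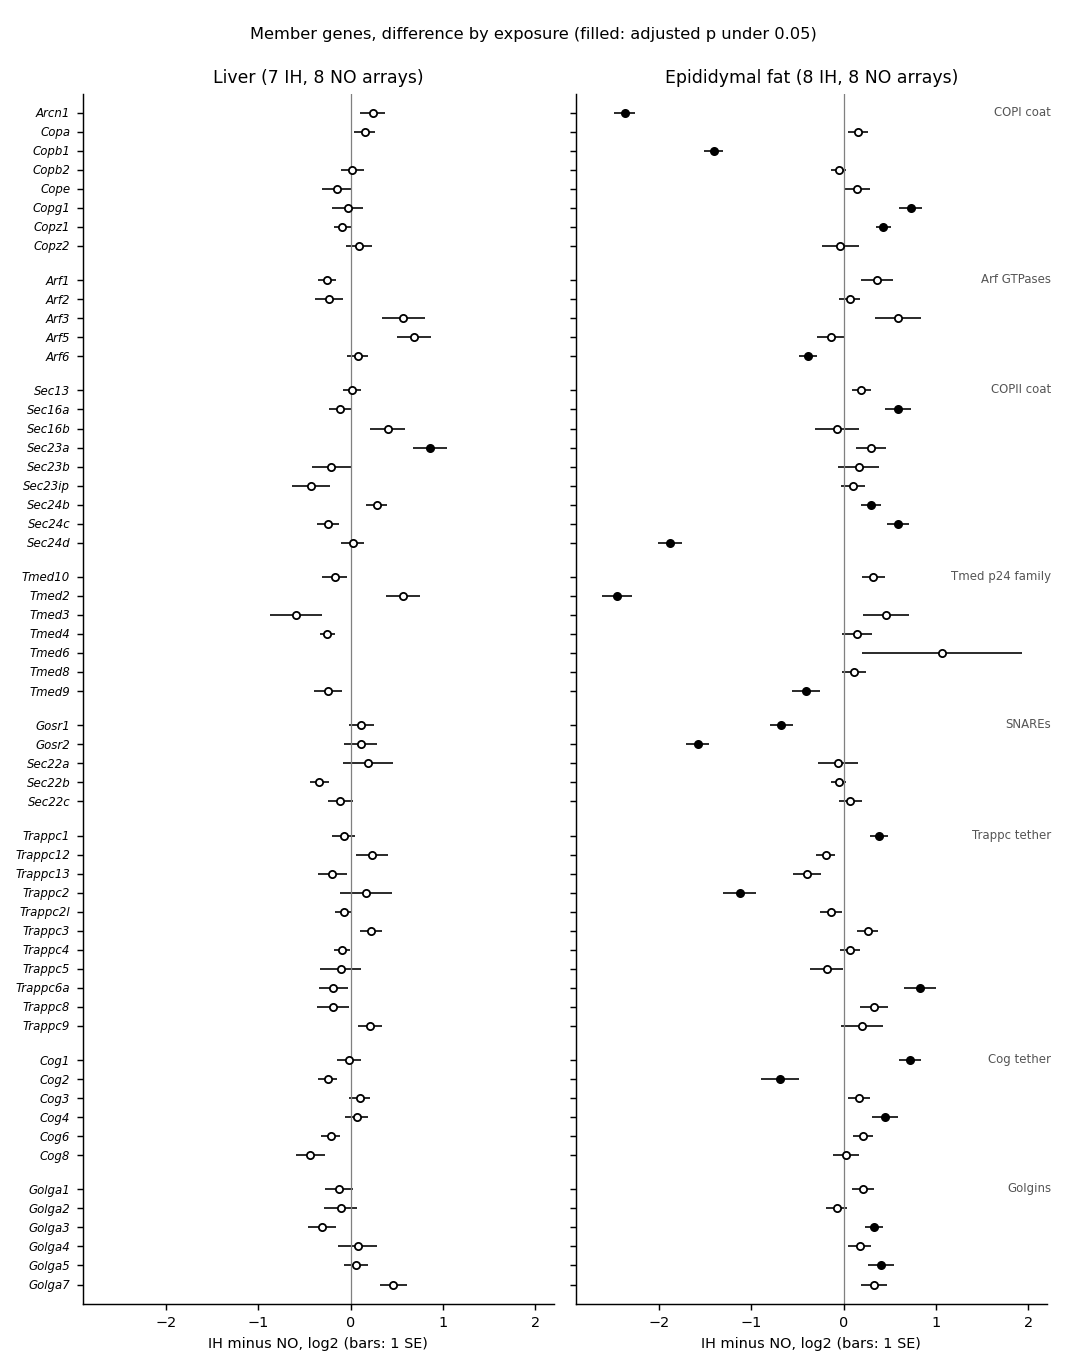
Difference between IH and NO (log2, bars of 1 SE) of every member gene that passed the signal filter, ordered by role, in liver (left, 54 genes) and in fat (right, 57 genes), with filled points at an adjusted p under 0.05. In liver 1 point is filled and the points lie between −0.59 and 0.86, whereas in fat 21 are filled, from −2.46 for Tmed2 to 0.83 for Trappc6a.

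In fat, 57 of the 62 genes passed the filter, and 21 were called, 11 higher and 10 lower in IH. Of all 8207 genes tested in fat, 32.1% were called, 17.6% higher and 14.5% lower, so the members' share (21 of 57, 36.8%) lay near that of all genes. At an unadjusted p up to 0.01 it was 19 of 57, against 29% of all genes. The 6 differences beyond 1 among the called members were all lower in IH, those of Tmed2, Arcn1, Sec24d, Gosr2, Copb1 and Trappc2. Without background correction those of Tmed2 and Gosr2 stayed beyond 1 (−1.13 and −1.30) and the others did not. Among all genes, 661 were called lower and 130 higher by more than 1. The IH and NO arrays did not overlap for 9 members, 4 higher (Cog1, Copg1, Copz1 and Sec24c) and 5 lower (Arcn1, Copb1, Gosr2, Sec24d and Tmed2), against 2.23% of all genes higher and 8.7% lower. The median difference was 0.15 over the members and 0.11 over all genes. Other measures moved with the exposure in fat as well. Of 8 adipocyte genes listed, 7 were measured and 2 of these were lower, and their summed signal was between 21410 and 66130 in fat IH and between 52230 and 79200 in fat NO. Fabp4, a lipid carrier of adipocytes, was between 5.43 and 8.96 in fat IH and between 10.55 and 11.85 in fat NO. In that list the medians of Adipoq, Lipe, Cidec and Retn were also lower in fat IH. Those of Plin1 and Lep were not (9.84 and 13.66, against 9.76 and 13.57 in fat NO). Of 5 genes listed for stellate cells, 4 were tested and 1 was lower. The collagen gene Col3a1, of that list, was between 6.06 and 7.68 in fat IH and between 9.64 and 10.78 in fat NO. The medians of Reln, Des and Dcn were 8.15, 9.21 and 14.05 in fat IH and 7.64, 8.90 and 14.23 in fat NO. Of 6 endothelial genes, 4 were tested and 2 were lower (summed signal 352.2 to 2108 in fat IH and 1388 to 2581 in fat NO), and of 9 macrophage genes, 3 were tested and 1 was lower (972.9 to 10010 in fat IH and 1296 to 9394 in fat NO). Adgre1, which marks macrophages, was between 5.32 and 7.16 in fat IH and between 8.56 and 9.87 in fat NO. Of the tested genes of other lists, 1 of 5 for mesothelium was lower (1117 to 9957 in fat IH and 1183 to 4001 in fat NO), and 1 of 3 for bile duct epithelium was higher (172.4 to 1373 in fat IH and 132.8 to 298.5 in fat NO). In both lists the highest fat IH sum was that of replicate 19, the array with all 7 epididymis probes. The median sums were also higher in fat IH (3943 and 303.3, against 2496 and 191.1 in fat NO). Of the mesothelium genes, Krt8, Krt18 and Upk3b had higher medians in fat IH (10.96, 8.81 and 9.79, against 8.89, 6.92 and 9.50). The medians of Msln and Wt1 were lower there. Of 3 tested hepatocyte genes 1 was lower, as was 1 of 3 tested red blood cell genes. Of 5 smooth muscle genes, 4 were tested and 2 were higher, with a summed signal between 18970 and 49860 in fat IH and between 9189 and 28270 in fat NO. The part of these measures in the differences below was not tested.

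The coatomer genes split in fat, with 2 of 8 higher and 2 lower. Arcn1 had 4.47, 4.79 and 5.03 in fat IH and 6.87, 7.14 and 7.54 in fat NO (lowest, median and highest). It was detected on 0 of 8 IH arrays and on 8 of 8 NO arrays, so it passed the filter only through the NO arrays, and every IH array lay below every NO array. The fitted difference was −2.37 (SE 0.11, adjusted p = 3.16e-11, exact permutation p = 0.000155, the smallest that 8 against 8 arrays can give, as for each pair of groups without overlap). Since the IH signal was not above background, the fall is given as a bound, at least 3.61-fold lower, which is the NO mean over the higher, per array, of the IH signal and the lowest detected signal. This bound holds for background-corrected values, and without background correction the difference was −0.92 for Arcn1. Copb1, which encodes the beta subunit, had 4.51, 4.61 and 4.79 in IH and 5.70, 6.04 and 6.29 in NO and was detected on 0 of 8 and 8 of 8 arrays. It also passed only through the NO arrays and was at least 1.66-fold lower on the corrected values (fitted difference −1.41, SE 0.10, adjusted p = 3.81e-09), against a difference of −0.43 without background correction. With detection required on every array, Arcn1, Copb1, Sec24d and Tmed2 dropped out and 17 members were called.

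Copg1, which encodes a gamma subunit, had 9.15, 9.43 and 9.93 in fat IH and 8.46, 8.62 and 9.09 in fat NO. All IH arrays lay above all NO arrays, by 0.73 in the mean (SE 0.13, adjusted p = 2.85e-04). The other 3 Copg1 probes were dimmer and differed by 0.35, 0.13 and −0.07, none called, and the mean of its probes gave 0.28 (adjusted p = 0.0648). Copz1 had 10.93, 11.19 and 11.32 in IH and 10.57, 10.71 and 10.93 in NO, a difference of 0.43 (SE 0.08, adjusted p = 6.19e-04), also without overlap. Copa, Copb2, Cope and Copz2 lay between −0.05 and 0.16 and were not called. The 95% interval of the difference was −0.22 to 0.12 for Copb2 and −0.06 to 0.38 for Copa.

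**Figure D3:**
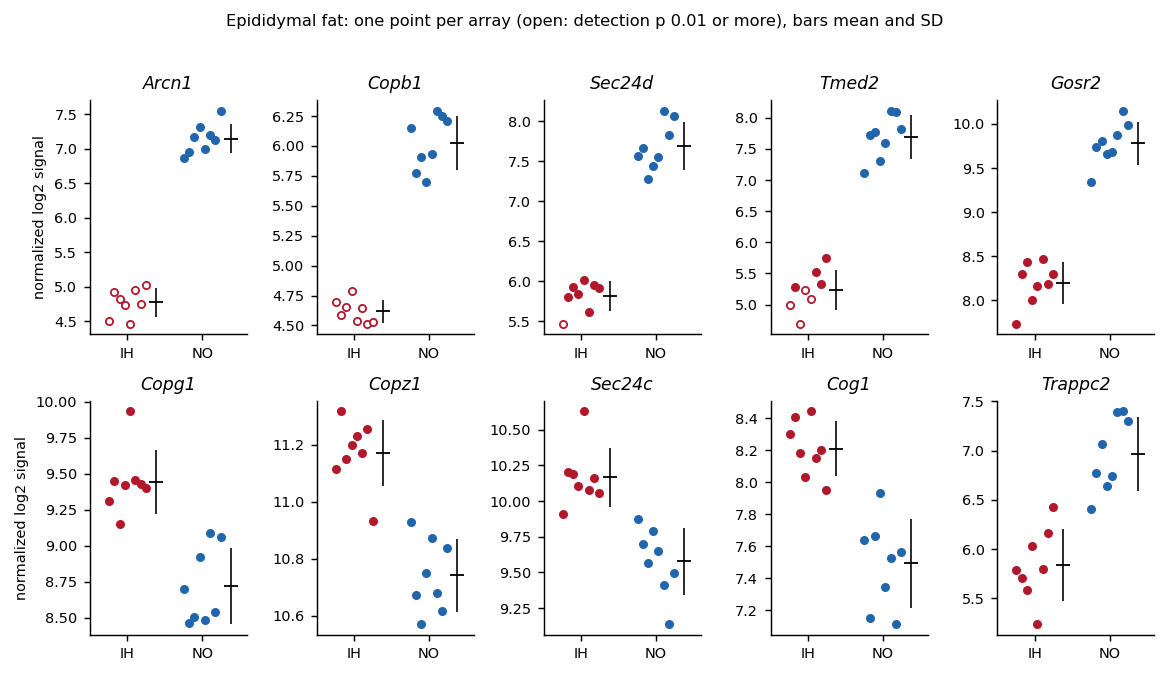
Normalized log2 signal of 10 member genes on each fat array, with the 8 IH arrays left and the 8 NO arrays right (open points: not detected, bars: mean and SD). All IH points of Arcn1 and Copb1 are open and lie under every NO point, those of Copg1, Copz1, Sec24c and Cog1 lie above every NO point, and Trappc2 overlaps at 1 IH array, 6.42 against a lowest NO value of 6.41.

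Of 9 measured COPII genes, 3 were higher and 1 was lower in fat. Sec24d, one of the paralogous cargo-binding subunits, had 5.47, 5.88 and 6.01 in fat IH and 7.27, 7.62 and 8.13 in fat NO. The IH arrays lay below all NO arrays, and the probe was detected on 7 of 8 of them. The difference was −1.88 (SE 0.13, adjusted p = 2.47e-09), and −0.95 without background correction. The other measured Sec24 genes went the other way. Sec24c had 9.91, 10.13 and 10.63 in IH and 9.14, 9.61 and 9.87 in NO, a difference of 0.59 (SE 0.12, adjusted p = 9.96e-04) with no overlap, and Sec24b had 9.53, 9.72 and 10.14 in IH and 9.20, 9.48 and 9.76 in NO, a difference of 0.30 (SE 0.11, adjusted p = 0.0474). Sec24b was called in 4 of the 16 fits that left out 1 array. Sec16a, the larger exit site scaffold, had 9.52, 9.77 and 10.55 in IH and 8.94, 9.26 and 9.57 in NO, a difference of 0.59 (SE 0.14, adjusted p = 0.00373). Sec23a, the member called in liver, differed by 0.30 in fat (SE 0.16, adjusted p = 0.176, 95% interval −0.05 to 0.64).

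Tmed2, a p24 receptor that works in a complex with Tmed10, also fell in fat. It had 4.69, 5.26 and 5.74 in fat IH, detected on 4 of 8 arrays, and 7.11, 7.75 and 8.11 in fat NO, detected on 8 of 8. The groups were more than 1 log2 unit apart at their nearest arrays, and the difference was −2.46 (SE 0.16, adjusted p = 1.86e-09), and −1.13 without background correction. Tmed10 itself had 10.92, 11.28 and 11.62 in IH and 10.54, 11.01 and 11.19 in NO, a difference of 0.32 that was not called (SE 0.12, adjusted p = 0.0559). Tmed9 had 11.68, 11.87 and 12.86 in IH and 12.15, 12.38 and 12.68 in NO, a difference of −0.41 (SE 0.15, adjusted p = 0.0472). Its highest IH array, replicate 19, lay above all NO arrays, and the call held in 3 of the 16 fits that left out 1 array. Tmed3, Tmed4, Tmed6 and Tmed8 were not called on their brightest probes.

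Of the 5 measured Sec22 and Gosr genes, 2 were lower in fat. Gosr2, a SNARE of entry into the Golgi, had 7.74, 8.24 and 8.47 in fat IH and 9.35, 9.78 and 10.15 in fat NO, with no overlap and a difference of −1.58 (SE 0.12, adjusted p = 1.65e-08). The call belongs to the brightest probe, as shown further on. Gosr1 had 6.75, 7.10 and 7.37 in IH and 7.24, 7.72 and 8.12 in NO, a difference of −0.67 (SE 0.13, adjusted p = 5.44e-04). The Sec22 genes lay between −0.06 and 0.07 and were not called.

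Among the tethers, Trappc2, a small core subunit of TRAPP, had 5.24, 5.79 and 6.42 in fat IH and 6.41, 6.92 and 7.40 in fat NO, a difference of −1.12 (SE 0.18, adjusted p = 1.13e-04), and −0.50 without background correction. Trappc6a, another core subunit, was higher, with 7.94, 8.31 and 9.09 in IH and 6.96, 7.59 and 8.03 in NO, a difference of 0.83 (SE 0.17, adjusted p = 0.00155). Trappc1 had 10.47, 10.55 and 10.88 in IH and 10.00, 10.19 and 10.56 in NO, a difference of 0.38 (SE 0.10, adjusted p = 0.00689), whereas its other probe differed by −0.15 and the mean of both by 0.12 (adjusted p = 0.396). The other 8 measured Trappc genes were not called and lay between −0.40 and 0.33.

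Cog1 and Cog4, both of the lobe of COG that holds Cog1 to Cog4, were higher in fat. Cog1 had 7.95, 8.19 and 8.44 in fat IH and 7.11, 7.55 and 7.93 in fat NO, without overlap (difference 0.72, SE 0.12, adjusted p = 1.94e-04). Cog4 had 7.95, 8.35 and 8.65 in IH and 7.29, 7.92 and 8.30 in NO (difference 0.45, SE 0.14, adjusted p = 0.0201). Cog2, of the same lobe, was lower, with 6.28, 7.54 and 8.07 in IH and 7.80, 8.26 and 8.47 in NO (difference −0.69, SE 0.21, adjusted p = 0.0164). Cog3, Cog6 and Cog8 lay between 0.03 and 0.21 and were not called.

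Of 6 Golga genes, 2 were higher and none was lower in fat. Golga3 had 8.23, 8.64 and 8.85 in fat IH and 8.13, 8.27 and 8.44 in fat NO, a difference of 0.33 (SE 0.10, adjusted p = 0.0159). Golga5 had 8.80, 8.92 and 9.84 in IH and 8.42, 8.61 and 8.95 in NO, a difference of 0.40 (SE 0.14, adjusted p = 0.0331) that was called in 10 of the 16 fits that left out 1 array. Of the Arf genes, Arf6, which acts at the plasma membrane and endosomes, had 8.94, 9.17 and 9.53 in IH and 9.40, 9.63 and 9.86 in NO, a difference of −0.38 (SE 0.10, adjusted p = 0.00747). Arf3 had 7.60, 8.50 and 10.09 in IH and 7.57, 7.96 and 8.44 in NO and was not called (difference 0.59, SE 0.25, adjusted p = 0.085).

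The probes of a gene did not always move together in fat. Of 85 member probes 32 were called, against 33.9% of all 11486 probes. Of the 57 members measured, 14 had several kept probes, and of these 1 (Tmed9) had every probe called in the same direction, 8 had some called and others not, 1 (Gosr2) had probes called in both directions, and 4 had none called. For Gosr2, the brightest probe differed by −1.58 and the other 3 by 0.26 (adjusted p = 0.0498), −0.24 and 0.26. The dimmer Tmed8 probe differed by −1.24 (SE 0.13, adjusted p = 4.8e-07) and the brighter one by 0.11 (SE 0.13, adjusted p = 0.546). Trappc4, another TRAPP core gene, had −0.56 on the dimmer probe (SE 0.12, adjusted p = 0.00234) and 0.07 on the brighter one. For Tmed4 the 3 dimmer probes were called higher, at 0.68, 0.69 and 0.71, and the brightest one differed by 0.15. Tmed9 had −1.05 on the dimmer probe (SE 0.14, adjusted p = 7.74e-06), detected on 2 of 8 IH arrays and 8 of 8 NO arrays, beside −0.41 on the brighter one. Arcn1, Copb1, Sec24d, Tmed2 and Trappc2 were each read by 1 kept probe.

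The same split was present beyond these genes. Of 661 genes called lower in fat IH by more than 1 log2 unit, 104 had other kept probes, and any of these was also called lower for 34. Over the 104 genes the median difference was −1.60 on the brightest probe and −0.04 on the other probes. Of 130 genes called higher by more than 1, 12 had other kept probes, and any of these was called higher for 9, with medians of 1.17 and 0.94. What sets the probes of a gene apart was not tested, and the positions of the probes in their transcripts were not used here.

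**Figure D4:**
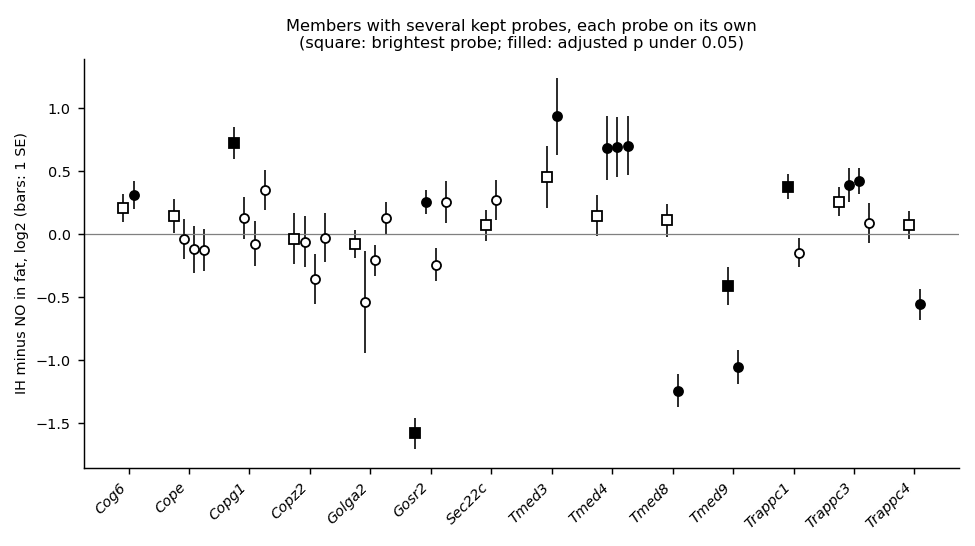
Difference between IH and NO in fat (log2, bars of 1 SE) for each kept probe of the 14 member genes with several probes, with squares for the brightest probe of a gene and filled symbols at an adjusted p under 0.05. Gosr2 has a square at −1.58 beside circles at 0.26, −0.24 and 0.26, and the circle of Tmed8 lies at −1.24 under a square at 0.11.

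The fat arrays that carried epididymis transcripts were set against the other arrays of their group, for the members and for all genes. On fat IH replicate 19, 42 of 57 members (73.7%) lay outside the range of the 6 fat IH arrays with fewer such probes, 27 above and 15 below, as did 63.2% of all genes. On fat IH replicate 16 it was 28.1% of the members and 39.3% of all genes, and on fat NO replicate 4, set against the other 7 fat NO arrays, 33.3% and 26.9%. Tmed6, a p24 family gene, read 10.97 on fat IH replicate 19, against 4.94 to 7.45 on the 6 fat IH arrays with fewer such probes. It read 10.03 on fat NO replicate 4, against 4.39 to 6.58 on the other 7 fat NO arrays. Tmed3 read 10.87 and 10.06 on fat IH replicates 19 and 16, against 8.93 to 9.32 on the other 6. Arf3 read 10.09 and Sec23b 8.23 on replicate 19, against at most 8.56 and 6.88. Tmed6 had the largest positive difference in fat, 1.06, with an SE of 0.87 (adjusted p = 0.368). Replicates 19 and 4 gave its highest values in fat IH and fat NO, but the ranges above show that the remaining arrays varied too. Its median was 6.49 over those 6 fat IH arrays and 4.68 over those 7 fat NO arrays. Without replicate 19, 22 members were called, the same 21 and Trappc3. Without all 3 arrays, an alternative chosen after seeing the data, 21 were called, 20 of them shared, with Golga3 lost and Trappc8 gained, and Arcn1, Copb1, Sec24d and Tmed2 had −2.32, −1.43, −1.94 and −2.49.

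The effect of IH was compared between the tissues as (IH minus NO in liver) minus (IH minus NO in fat), in 1 fit of all 31 arrays. Of 57 members measured, 20 differed, 9 above 0 and 11 below, whereas 22.3% of all 8905 genes did (12.1% above 0 and 10.1% below). The difference was 3.02 for Tmed2 (SE 0.25, adjusted p = 2.28e-11), 2.53 for Arcn1 (SE 0.17, adjusted p = 2.74e-13), 1.94 for Sec24d (SE 0.18, adjusted p = 4.54e-10), 1.69 for Gosr2 (SE 0.22, adjusted p = 3.92e-07) and 1.45 for Copb1 (SE 0.23, adjusted p = 1.19e-05). The values of Arcn1 and Copb1 are fitted ones that rest on undetected fat IH signals and give no exact size, and without background correction they were 1.09 and 0.50. Tmed2 was detected on 4 of 8 fat IH arrays, so its size is not exact either. Without background correction the values of Tmed2 and Sec24d were 1.53 and 0.97. The Gosr2 value was 0.30 (adjusted p = 0.209) with the mean of its probes. In this fit Tmed2 had an effect of 0.56 in liver and −2.46 in fat, and Arcn1 of 0.24 and −2.29. The upper end held genes that were lower in fat IH and not called in liver. Gosr1 differed by 0.80 (SE 0.19, adjusted p = 0.00194). At the lower end were Trappc6a at −1.02 (SE 0.24, adjusted p = 0.00211), Sec24c at −0.83 (SE 0.17, adjusted p = 3.15e-04), Cog1 at −0.74 (SE 0.18, adjusted p = 0.0022) and Copz1 at −0.52 (SE 0.12, adjusted p = 0.00149). Sec23a was not among the 20 (0.56, SE 0.24, adjusted p = 0.0943).

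Liver and fat were then compared under NO, on values of all 31 arrays normalized together. The liver NO arrays lay on chip 1 and the fat NO arrays on chips 3 and 4, so tissue and chip cannot be told apart here. Of 57 members, 33 differed, 20 higher and 13 lower in liver, against 73% of all 8905 genes (29.8% higher and 43.3% lower). The NO arrays of the tissues did not overlap for 15 members, 8 higher and 7 lower in liver, against 43.1% of all genes. The median was 0.10 over the members and −0.20 over all genes. The COPII genes stood mostly on the liver side, with 7 of 9 higher and 1 lower. Sec16b had 8.48, 9.10 and 9.96 in liver NO and 6.49, 7.32 and 7.62 in fat NO, a difference of 1.93 (SE 0.22, adjusted p = 3.36e-09). Sec23b, the paralog of Sec23a, had 8.01, 8.53 and 9.15 in liver NO and 6.27, 6.66 and 7.07 in fat NO, a difference of 1.91 (SE 0.22, adjusted p = 5.46e-09). Every liver NO array lay above every fat NO array for both. Sec24d differed by 1.38 (SE 0.13, adjusted p = 2.6e-11) and Sec16a by 1.18 (SE 0.13, adjusted p = 2.43e-09). Sec24b ran the other way, with 7.25, 7.83 and 8.05 in liver NO and 9.19, 9.47 and 9.75 in fat NO, a difference of −1.71 (SE 0.11, adjusted p = 8.07e-15).

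**Figure D5:**
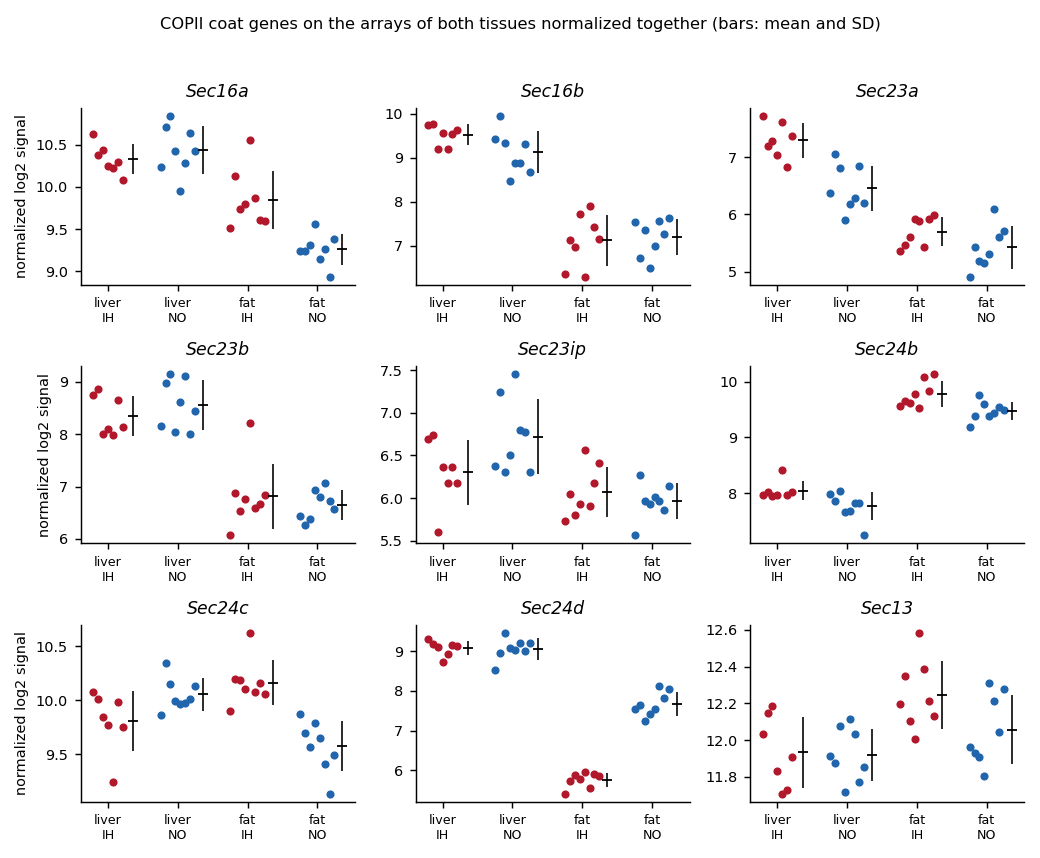
Normalized log2 signal of the 9 measured COPII genes on all 31 arrays, in the groups liver IH, liver NO, fat IH and fat NO (bars: mean and SD). Sec16b and Sec23b lie higher in liver NO than in fat NO, by 1.93 and 1.91, Sec24b lies lower by 1.71, and Sec24d has its lowest points in fat IH.

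In the other roles the tissues divided. Cog8 was higher in liver NO by 1.30 (SE 0.15, adjusted p = 2.74e-09), with 10.35, 10.65 and 11.42 there and 9.04, 9.45 and 9.73 in fat NO. Arf2 was lower in liver NO, with 8.41, 8.73 and 9.45 there and 9.83, 10.02 and 10.27 in fat NO (difference −1.25, SE 0.13, adjusted p = 4.05e-10). Trappc4 was lower by 1.12 on the log2 scale (difference −1.12, SE 0.10, adjusted p = 7.53e-12) and Copz2, the second zeta subunit, also (−1.12, SE 0.18, adjusted p = 1.49e-06). Tmed8 was detected on 0 of 8 liver NO arrays and on 8 of 8 fat NO arrays. It passed the filter only through the fat arrays. On the background-corrected values it was at least 1.73-fold lower in liver (fitted difference −1.78, limma adjusted p = 9.77e-11). Of 11 Trappc genes 3 were higher and 5 lower in liver, of 8 coatomer genes 3 and 1, of 5 Arf genes 2 and 1, of 6 Cog genes 1 and 1, of 6 Golga genes 2 and 1, of 5 Sec22 and Gosr genes 2 and 1, and of 7 Tmed genes 0 and 2. Tmed9 had means of 12.35 in liver NO and 12.40 in fat NO, which were not called different. These directions depend on scaling both tissues to 1 distribution. On the authors' processed values, which were scaled within each tissue and carry a median of −0.88 over all genes, 0 members were higher and 49 lower in liver.

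The members that did not pass the filter had low signals. Arf4, Sec24a, Tmed5, Tmed11 and Trappc11 were kept in none of the fits, and their probes were detected on between 0 and 2 arrays of any group. In liver, Copb1 (detected on 4 of 7 IH and 2 of 8 NO arrays), Tmed6 (3 of 7 and 2 of 8) and Tmed8 (0 of 7 and 0 of 8) did not pass either.

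Other genes of the same route were read from a list of 63 that the symbol rule does not take. In liver 47 were measured and 0 were called with limma at an adjusted p under 0.05, against 0.931% of all genes. At an unadjusted p up to 0.01, 1 was higher, Ctage5, a partner of the cargo receptor for collagen (0.32, SE 0.09, adjusted p = 0.0927), and 1 was lower, the Golgi GTPase gene Rab6a (−0.51, SE 0.17, adjusted p = 0.152), whose probes differ in direction. The next by p were the SNARE gene Ykt6 (0.28), Arfgap2 (−0.26), which switches Arf1 off, Rab1b (0.51) and the cargo receptor gene Surf4 (−0.34). In fat 50 were measured, 11 higher and 9 lower, which is 20 of 50 against 32.1% of all genes, with a median of 0.18 against 0.11. The 6 with the smallest p were all lower in fat IH. Kdelr1, a receptor that returns resident proteins to the endoplasmic reticulum, was detected on 0 of 8 IH arrays and 8 of 8 NO arrays. It passed the filter only through the NO arrays. On the background-corrected values it was at least 1.40-fold lower (limma, adjusted p = 3.71e-08). Without background correction the difference was −0.36. Ergic2, of the compartment between the endoplasmic reticulum and the Golgi, differed by −1.11 (SE 0.11, adjusted p = 5.83e-07), and the cargo receptor gene Cnih1 by −1.26 (SE 0.18, adjusted p = 3.58e-05). Surf4 differed by −0.70, Golph3l, a relative of a Golgi sorting protein, by −0.64, and the Golgi GTPase gene Arl1 by −0.54 (adjusted p between 9.97e-05 and 2.58e-04). Kdelr3, a paralog of Kdelr1, was higher by 0.62 (SE 0.17, adjusted p = 0.0126), and was named after its value was seen.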

How the data were processed

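RNA of liver and epididymal fat of the mice described above was read on Illumina MouseRef-8 v2.0 bead arrays, 31 in all. The authors exported the signal intensities and the detection p-values of 25697 probes with GenomeStudio, and the deposited signal table is named not normalized. Its 31 arrays nevertheless shared 1 distribution of values (sorted intensities within 1.05% of each other), so an earlier scaling over both tissues cannot be taken out again. A second table deposited by the authors held processed intensities, scaled within each tissue (array medians of 121.54 in liver and 151.6 in fat), and served as an alternative. Every value column was matched to a sample (0 unmatched), and 0 pairs of arrays were identical. The genome build behind the probes is not given in the sources used here.

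Intensities were corrected and quantile normalized with neqc (limma 3.58.1, R 4.3.3, offset 16), using detection p-values in place of control probes. Probes with a detection p under 0.01 on at least 7 liver, 8 fat or, for both tissues, 7 arrays were kept, and the kept probe with the highest mean signal stood for its gene. Differences were tested with lmFit and eBayes (limma, two-sided), with Benjamini-Hochberg adjustment over all genes kept and calls at an adjusted p under 0.05. The study's methods name SAM, which was run as an alternative with 100 permutations. Single genes were also tested with a two-sided exact permutation test over arrays, and the test steps were tested on simulated data. Where no array of a group detected a probe, the fold given is a limit, from the other group's mean and the average of, per array, the higher of its signal and the lowest detected signal.

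Named were the called members (up to 12 in each direction in fat), those at an unadjusted p up to 0.01 in liver, the 2 of smallest p per role and tissue, the 5 largest differences each way between tissues, the 10 of smallest p between the effects, the brightest member and the 6 pathway genes of smallest p. Promoter letters were searched on both strands of RefSeq windows. The members, the lists and the rule were chosen with earlier results of these data known. Background correction, scaling, filter, probe choice, test, chip and left-out arrays were varied.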

Additional observations from a re-analysis of the deposited data

Results flagged for a closer look

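Of all 8905 genes tested, 22.3% had an effect of IH that differed between liver and fat (limma test of the difference, liver minus fat, adjusted p under 0.05). Among the members the effect differed for 20 of 57 genes (35.1%). It was above 0 for 9 of them: Tmed2 (3.02), Arcn1 (2.53), Sec24d (1.94), Gosr2 (1.69), Copb1 (1.45), Trappc2 (1.32), Arf5 (0.82), Gosr1 (0.80) and Arf6 (0.46). For 8 of these the fat effect was called lower, and in liver 7 were not called and Copb1 did not pass the filter. Arf5 was the exception, with 0.68 in liver and −0.14 in fat, neither called on its own, and its call was lost with the number shared by liver and fat arrays as a replicate block. It was below 0 for 11: Tmed3 (−1.05), Trappc6a (−1.02), Sec24c (−0.83), Copg1 (−0.76), Cog1 (−0.74), Sec16a (−0.70), Golga3 (−0.64), Arf1 (−0.62), Copz1 (−0.52), Trappc1 (−0.46) and Cog6 (−0.43). Their adjusted p ran from 2.74e-13 for Arcn1 to 0.0464 for Tmed3. Arf1 had −0.26 in liver and 0.36 in fat, and Cog6 had −0.22 and 0.21, none of them called within a tissue on the brightest probe, although the other Cog6 probe was called higher in fat (0.31, adjusted p = 0.0421 with limma). The calls of Arf1, Arf6, Tmed3 and Trappc1 were lost with the replicate block and also with chip as a random block, which lost Cog6 too. The call of Gosr2 was lost with the mean of its probes (0.30, adjusted p = 0.209). Without fat IH replicate 19, 17 of the 20 were called, with Cog6, Tmed3 and Trappc1 lost.

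One array lay far from the rest of its group for 7 of the 76 pairs of a named member and a group that were looked at. The pairs share arrays and are not independent. Of the 7, 6 were fat IH replicate 19, the array with all 7 epididymis probes. It was highest for Copg1 (9.93, next array 9.46), Sec24c (10.63, next 10.20), Golga5 (9.84, next 9.24), Tmed9 (12.86, next 12.22) and Arf3 (10.09, next 8.67), and lowest for Cog2 (6.28, next 7.47). The other was liver IH replicate 20 for Sec24b (8.41, with 8.02 on the next array).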

How the results depend on the processing

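In liver, the 1 called member (Sec23a) became 0 with the authors' processed values, without a detection filter, with detection required on every array, with chip as a random block, and without chip 2 or chip 3. It became 3 with array weights (Arf5 and Tmed2 added), 2 with the SAM-type statistic (Arf5 added) and 2 probes with each probe tested on its own, and 0 to 3 with 1 array left out. The 6 at an unadjusted p up to 0.01 became 3 with the chip block and 1 without chip 3, and 2 to 9 with 1 array left out. In fat, the 21 called members became 10 without chip 4 (which holds 5 of the 8 NO arrays, 9 genes shared) and 32 probes with each probe tested on its own, and 17 to 23 with 1 array left out. The 19 at an unadjusted p up to 0.01 became 11 without chip 4. Counting a gene only where every kept probe was called, an alternative chosen after seeing the data, left 18, without Copg1, Gosr2 and Trappc1. Between tissues, the 33 became 56 probes with each probe on its own. Some signs turned. Liver Tmed4 had 0.26 and Rab6a 0.082 as the mean of their probes, and Rab6a lay between −0.58 and 0.75 with 1 array left out. With another Gosr2 probe then the brightest, fat Gosr2 had 0.23 without chip 3, 0.30 without chip 4 and −1.64 to 0.22 with 1 array left out. Between tissues, Tmed9 had 0.18 as the mean of its probes and −0.14 to 0.0024 with 1 array left out, and on the processed values Sec24d had −0.088 and Sec16a −0.018. Without background correction the falls in fat IH were smaller and still called. They were −0.92 for Arcn1, −1.13 for Tmed2, −0.95 for Sec24d, −0.43 for Copb1, −0.50 for Trappc2 and −1.30 for Gosr2. The labels do not say whether a number shared by a liver and a fat array marks 1 mouse. Of 15 such pairs, 8 correlated above 0.1 and 8 matched best with their own number, a hint of pairing in part of them. The results above nevertheless treated all arrays as independent and did not use the numbers as pairs. With them as a replicate block, 33 members differed between tissues, the same ones, and 16 between the effects, 15 of these shared with the 20 (Arf1, Arf5, Arf6, Tmed3 and Trappc1 lost, Tmed10 gained). The mean of the probes lost Cog6, Copg1, Gosr2 and Trappc1 from the 20. Signal near background limits Arcn1, Copb1, Tmed2, Sec24d, Trappc2, Tmed8 and Sec23a.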
